A study of Homo sapiens with 4 samples.

Results

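The AP-1 subunit genes FOS, FOSB, FOSL1, FOSL2, JUN, JUNB, JUND, ATF3, MAFF and BATF3 were measured in AGS cells, an established human gastric carcinoma line, treated with ornithogalum or with its vehicle. Members were taken as the array features annotated with exactly 1 gene symbol from this list. All 10 genes were found, each as 1 transcript cluster (a set of probes that together report 1 transcript locus), among 21214 clusters with at least 1 symbol and 18417 genes with a cluster of their own. The treated group was AGS cells given 0.01% ornithogalum, a homeopathic formulation, for 36 h (2 arrays). The control group was AGS cells given ethanol, the vehicle, for 36 h (2 arrays). All cells were grown in DMEM-F12 medium with serum and treated near confluency, and total RNA was hybridised to Affymetrix Human Gene 1.0 ST arrays. The labels call the arrays biological replicates but do not tie them to separate experiments, and the p-values therefore reflect only how far these 4 samples scatter. A single cancer line was used, and untreated cells without ethanol were not analysed here.

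AP-1 is a transcription factor made of paired basic leucine zipper (bZIP) proteins. JUN proteins pair with each other or with FOS proteins, whereas FOS proteins need a JUN partner to bind DNA. The pairs bind the TRE (TGACTCA), and pairs that contain an ATF protein favour the CRE (TGACGTCA). Several of these genes are early response genes, switched on by growth factors and stress through MAP kinases, and their mRNAs and proteins are typically short-lived. In epithelial tumours AP-1 is known for its control of proliferation, invasion and stress responses.

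The DNA around the start sites is shown for 7 genes so that the promoters of members that rose can be read beside those of close relatives that did not pass the test. RefSeq promoter windows (GRCh38.p14), from 250 bases before to 50 bases after the gene start, were on hand for 8 of the 10 members, and BATF3 and FOSL1 had no entry in the table used. The windows printed are JUN at chr1:58783998-58784297 (minus strand), JUNB at chr19:12791236-12791535 (plus strand), JUND at chr19:18281573-18281872 (minus strand), FOS at chr14:75278578-75278877 (plus strand), FOSB at chr19:45467746-45468045 (plus strand), FOSL2 at chr2:28392608-28392907 (plus strand) and the upstream of 2 annotated starts of ATF3 at chr1:212565157-212565456 (plus strand). Each reads 5′ to 3′ on the gene's strand. Capitals mark the CRE half-site TGACG on either strand, the TRE named above, and TGACATCA, a one-base variant of the CRE known from the JUN promoter.
JUN: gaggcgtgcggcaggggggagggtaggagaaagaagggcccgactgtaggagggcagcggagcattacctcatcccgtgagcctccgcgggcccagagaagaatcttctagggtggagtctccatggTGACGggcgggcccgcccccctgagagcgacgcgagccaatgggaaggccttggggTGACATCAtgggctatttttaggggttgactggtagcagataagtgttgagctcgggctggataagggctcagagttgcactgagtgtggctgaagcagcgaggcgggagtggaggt
JUNB: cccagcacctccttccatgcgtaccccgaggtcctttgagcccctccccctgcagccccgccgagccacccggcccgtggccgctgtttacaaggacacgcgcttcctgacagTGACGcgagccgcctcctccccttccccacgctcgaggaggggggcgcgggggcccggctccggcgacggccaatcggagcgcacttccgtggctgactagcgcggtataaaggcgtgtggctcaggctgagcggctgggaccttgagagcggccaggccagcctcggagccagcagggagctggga
JUND: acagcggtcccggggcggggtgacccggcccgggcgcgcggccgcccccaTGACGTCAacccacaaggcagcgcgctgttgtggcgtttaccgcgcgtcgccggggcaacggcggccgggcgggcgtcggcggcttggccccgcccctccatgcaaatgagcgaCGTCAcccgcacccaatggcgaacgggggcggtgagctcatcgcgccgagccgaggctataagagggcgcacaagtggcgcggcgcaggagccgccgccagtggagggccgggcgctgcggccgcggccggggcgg
FOS: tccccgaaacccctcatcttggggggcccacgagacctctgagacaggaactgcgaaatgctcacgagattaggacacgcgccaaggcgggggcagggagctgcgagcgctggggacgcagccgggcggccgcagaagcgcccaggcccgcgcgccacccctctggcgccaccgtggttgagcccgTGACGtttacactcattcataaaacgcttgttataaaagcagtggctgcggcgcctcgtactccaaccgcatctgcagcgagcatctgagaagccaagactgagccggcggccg
FOSB: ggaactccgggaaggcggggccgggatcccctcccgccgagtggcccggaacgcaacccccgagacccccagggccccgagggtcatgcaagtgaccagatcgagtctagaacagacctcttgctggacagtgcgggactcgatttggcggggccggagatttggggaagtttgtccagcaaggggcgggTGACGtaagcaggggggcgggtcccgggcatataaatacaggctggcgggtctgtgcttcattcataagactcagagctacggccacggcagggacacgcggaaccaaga
FOSL2: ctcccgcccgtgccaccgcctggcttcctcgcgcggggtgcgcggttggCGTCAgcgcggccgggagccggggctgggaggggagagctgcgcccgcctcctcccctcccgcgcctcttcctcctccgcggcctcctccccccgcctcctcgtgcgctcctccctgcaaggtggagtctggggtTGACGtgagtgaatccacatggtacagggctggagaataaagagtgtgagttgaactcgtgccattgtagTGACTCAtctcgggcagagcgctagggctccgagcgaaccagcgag
ATF3: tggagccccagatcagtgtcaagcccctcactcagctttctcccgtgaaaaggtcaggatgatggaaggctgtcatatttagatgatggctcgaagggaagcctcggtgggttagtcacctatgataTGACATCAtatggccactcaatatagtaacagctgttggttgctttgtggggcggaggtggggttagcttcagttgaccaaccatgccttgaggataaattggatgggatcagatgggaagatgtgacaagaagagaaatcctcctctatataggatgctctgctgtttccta

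The half-site TGACG, searched on both strands, occurred in 7 of the 8 members with a window and in 24.6% of all 35116 windows in the table. It was added to the search after the windows had been read. The exception within these windows was ATF3, whose upstream annotated start held TGACATCA instead, with its first base 123 bases before the start. Other DNA of the ATF3 locus was not searched, so the half-site is not shown to be absent from the ATF3 promoter. JUN held TGACATCA 67 bases before its start, a match fixed in advance because the variant was taken from that promoter. The variant occurred in 2.61% of all windows. The half-site began 64 bases before the start in FOS and 60 bases before it in FOSB. The full CRE, which contains the half-site on both strands, was present in JUND and MAFF and in 1.85% of all windows. The TRE was present in FOSL2, starting 5 bases into the transcribed part, and in 4.95% of all windows. The letters TATAAA of the TATA box were found in 4 members (FOS, FOSB, JUNB and, in its downstream window, ATF3) and in 11.5% of all windows. They began 33, 30 and 31 bases before the start in FOS, FOSB and JUNB, but 230 bases before it in ATF3. ATF3 and MAFF had several windows, and for each motif a match in any of them was counted for the member. The CArG box, which serum response factor binds, and the composite C/EBP-ATF element TGATGCAA were found in 0 members within these windows. They occurred in 1.29% and 0.866% of all windows, so 0 matches among 8 members cannot set the members apart from other genes. DNA outside the windows was not searched for them, so neither element is shown to be absent from these genes. JUND and FOSL2, which did not pass the test below, carried the half-site as JUN, JUNB, FOS and FOSB did. A match is a stretch of letters and not evidence that a factor was bound.

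Values are the authors' log2 expression values. Over the clusters tested, array medians were 4.48 and 4.62 for ornithogalum and 4.71 and 4.70 for vehicle, and the within-group SD was 0.258 for ornithogalum and 0.140 for vehicle. The 7 epithelial markers measured had mean log2 values of 5.75 to 10.4 in ornithogalum cells and 6.08 to 10.5 in vehicle cells. Of these, KRT19 was the 1 marker that passed the test (lower, limma adjusted p = 0.00437). The highest mean among fibroblast, leukocyte and endothelial markers was 5.39 in ornithogalum cells and 5.49 in vehicle cells, and of 14 measured 0 passed limma's adjusted threshold and 0 had an unadjusted p under 0.05. The summed log2 levels were 21.5 to 22.6 for ornithogalum and 21.3 to 21.4 for vehicle (6 fibroblast markers), 11.87 to 12.04 for ornithogalum and 11.53 to 11.60 for vehicle (4 leukocyte markers), and 12.67 to 12.73 for ornithogalum and 12.01 to 12.37 for vehicle (4 endothelial markers). The part of these small shifts in the results was not tested. In total RNA of a culture, a change in every cell and a change in the share of cells that make a transcript cannot be told apart.

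The majority of AP-1 subunit genes were higher in ornithogalum cells. JUN, JUNB, FOSL1, ATF3, FOSB and FOS rose, by 1.72-fold (FOS) to 4.53-fold (JUN), and FOSL2, MAFF, JUND and BATF3 did not pass the test. Groups were compared with limma, with p-values adjusted by Benjamini-Hochberg over all 21214 clusters and a threshold of 0.05, and "rose" and "fell" refer to this threshold. Of the 10 members 6 rose and 0 fell, and at an unadjusted p under 0.05 limma gave 8 higher and 0 lower. Over all clusters limma called 19.2% in either direction, 6.57% higher and 12.6% lower. The median log2 difference was 0.89 over the 10 members and 0.035 over all clusters. Both ornithogalum arrays lay above both vehicle arrays for 9 of the 10 members and below them for 0. Over all clusters the groups did not overlap in 62.2%, upwards in 32% and downwards in 30.2%. The members were chosen with earlier results of these data known, so these counts are descriptions only.

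**Figure D1:**
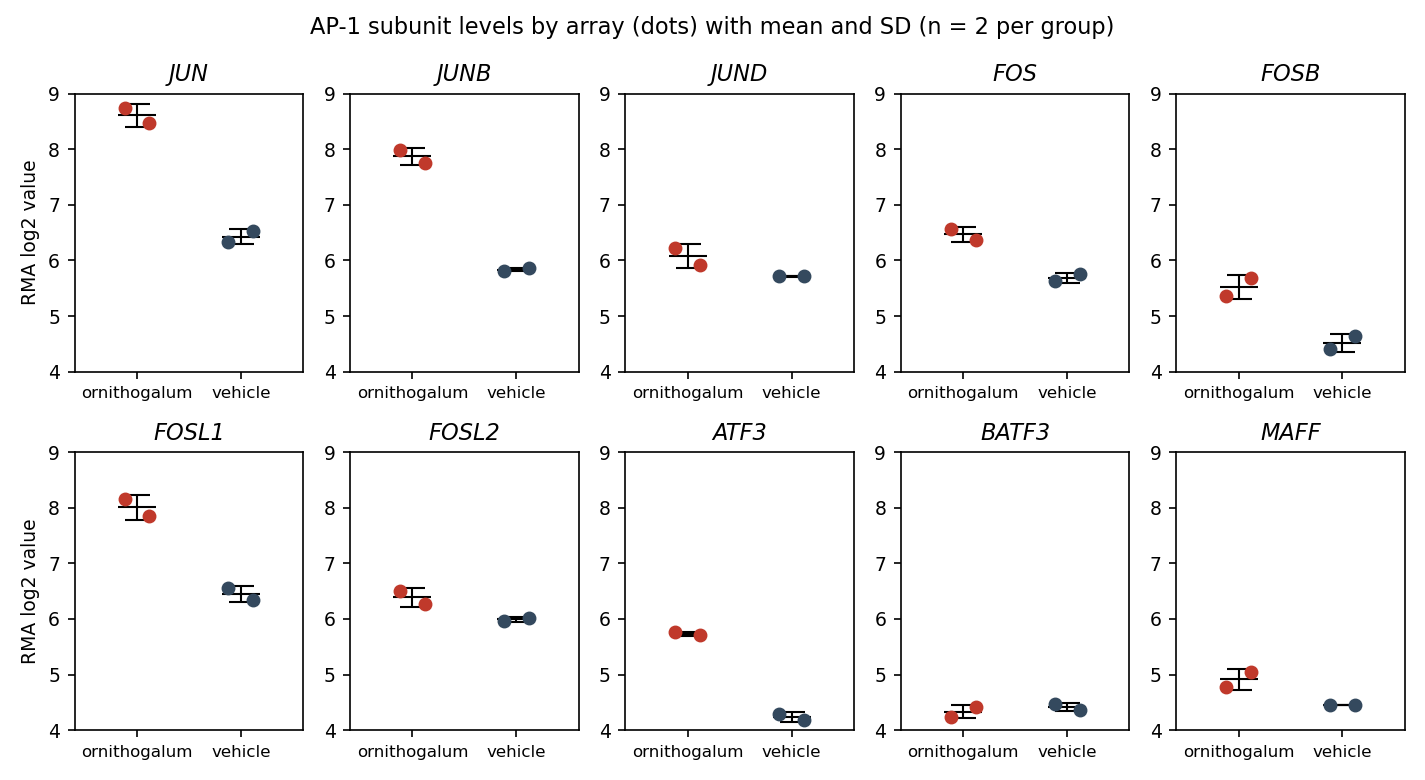
Log2 expression value (vertical axis, same scale in each panel) of the 10 AP-1 subunit genes on each array, with ornithogalum left and vehicle right; dots are single arrays, horizontal bars the mean and whiskers the SD (n = 2 per group). JUN, JUNB, FOSL1 and ATF3 show wide gaps between the groups, while the groups overlap for BATF3.

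Among the JUN genes, JUN and JUNB rose more than 4-fold and JUND did not pass. JUN, the canonical subunit and a substrate of JNK kinases (cluster 7916609), had log2 values of 8.75 and 8.47 on the ornithogalum arrays, against 6.33 and 6.52 on the vehicle arrays. The lower ornithogalum array lay 1.94 above the higher vehicle array. The mean was 8.61 ± 0.20 in ornithogalum cells and 6.43 ± 0.14 in vehicle cells (SD, n = 2 each), a log2 difference of 2.18 (SE 0.15), or 4.53-fold higher (95% interval 3.45 to 5.94, limma adjusted p = 0.00336).

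JUNB, which activates transcription more weakly than JUN and can oppose it (cluster 8026047), had log2 values of 7.98 and 7.75 on the ornithogalum arrays, against 5.81 and 5.85 on the vehicle arrays. The gap between the groups, 1.90, was wider than the distance of 0.227 between the ornithogalum arrays and of 0.0406 between the vehicle arrays. JUNB was 4.09-fold higher in ornithogalum cells (95% interval 3.25 to 5.16, log2 difference 2.03, SE 0.13, limma adjusted p = 0.00336).

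JUND, the subunit known for steady expression in many cell types (cluster 8035445), had log2 values of 6.22 and 5.92 on the ornithogalum arrays, against 5.72 and 5.71 on the vehicle arrays. The groups did not overlap, but the gap of 0.199 was smaller than the distance between the ornithogalum arrays. The log2 difference was 0.36 (SE 0.14, 95% interval -0.013 to 0.725, limma adjusted p = 0.159), which allows up to a 1.65-fold increase. The 95% intervals of JUN (1.79 to 2.57) and JUNB (1.70 to 2.37) lay wholly above that of JUND, although the difference between members itself was not tested.

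Of the FOS genes, FOSL1 had the highest fold, FOSB and FOS followed, and FOSL2 did not pass. FOSL1, also called FRA-1, lacks the strong activation domain of FOS and is known from invasive epithelial tumours (cluster 7949532). It had log2 values of 8.16 and 7.84 on the ornithogalum arrays, against 6.55 and 6.34 on the vehicle arrays. Both pairs of arrays were close relative to the gap of 1.29 between them. FOSL1 averaged 8.002 ± 0.23 in ornithogalum cells and 6.45 ± 0.15 in vehicle cells (SD, n = 2 each), 2.94-fold higher (95% interval 2.20 to 3.92, limma adjusted p = 0.00558).

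FOSB, a full-length activator that also gives a truncated splice form (cluster 8029693), had log2 values of 5.37 and 5.67 on the ornithogalum arrays, against 4.40 and 4.64 on the vehicle arrays. It was 2.00-fold higher in ornithogalum cells (log2 difference 1.002, SE 0.16, 95% interval 0.585 to 1.420, limma adjusted p = 0.0162). One cluster covered the FOSB locus, so its splice forms were not separated.

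FOS, the founding early response member (cluster 7975779), had log2 values of 6.56 and 6.37 on the ornithogalum arrays, against 5.63 and 5.75 on the vehicle arrays. The groups stood 0.626 apart. FOS was 1.72-fold higher in ornithogalum cells (log2 difference 0.78, SE 0.13, 95% interval of the fold 1.37 to 2.16, limma adjusted p = 0.0171), the smallest change among the members that rose.

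FOSL2, or FRA-2, is a relative of FOSL1 (cluster 8041048). Its log2 values were 6.51 and 6.27 on the ornithogalum arrays, against 5.96 and 6.02 on the vehicle arrays. Both ornithogalum arrays were higher, by a gap of 0.249 that was close to the distance of 0.242 between them. The log2 difference of 0.40 (SE 0.13, 95% interval 0.055 to 0.741) had a limma adjusted p = 0.108 and an unadjusted p = 0.0306. The 95% interval of FOSL1 (1.14 to 1.97) lay above those of FOSL2 and FOS (0.45 to 1.11), and overlapped that of FOSB (0.58 to 1.42), and these differences were not tested.

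ATF3 rose, and MAFF and BATF3 did not pass. ATF3, a stress-induced factor of the ATF group that represses transcription as a homodimer and can pair with JUN proteins (cluster 7909610), had log2 values of 5.76 and 5.71 on the ornithogalum arrays, against 4.29 and 4.18 on the vehicle arrays. The ornithogalum arrays lay 0.0495 apart, the closest pair among the members in that group. ATF3 averaged 5.74 ± 0.035 in ornithogalum cells and 4.24 ± 0.081 in vehicle cells (SD, n = 2 each), 2.83-fold higher (95% interval 2.30 to 3.47, limma adjusted p = 0.00359).

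MAFF is a small MAF protein, which has no activation domain and pairs with itself, with NRF and BACH factors and with FOS (cluster 8073007). Its log2 values were 4.78 and 5.05 on the ornithogalum arrays, against 4.45 and 4.45 on the vehicle arrays. Both ornithogalum arrays were higher, and the vehicle arrays differed by under 0.001 (0.000797). The log2 difference was 0.47 (SE 0.14, 95% interval 0.117 to 0.823, limma adjusted p = 0.0779), with an unadjusted p = 0.0186.

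BATF3, a bZIP factor that pairs with JUN proteins and is known from dendritic cells (cluster 7924166), had log2 values of 4.24 and 4.41 on the ornithogalum arrays, against 4.47 and 4.36 on the vehicle arrays. It was the 1 member whose groups overlapped. The log2 difference was -0.086 (SE 0.13, 95% interval -0.406 to 0.234, limma adjusted p = 0.67) and the interval of the fold ran from 0.755 to 1.18. BATF3 and MAFF were also the 2 members with a log2 value under 5 on at least 3 of the 4 arrays, where the deposited table gives no detection call.

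**Figure D2:**
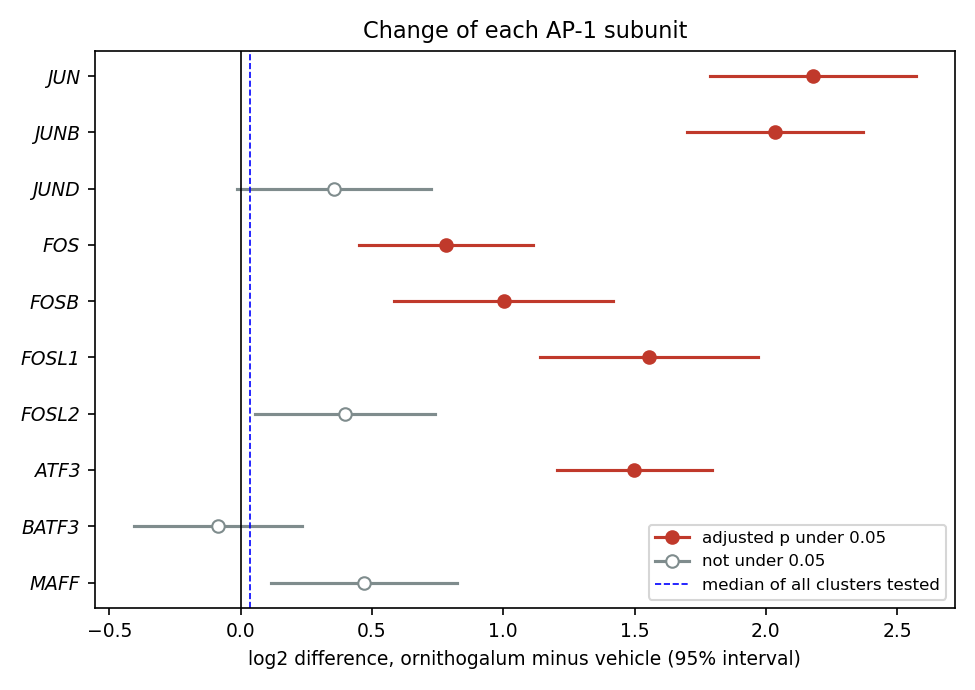
Log2 difference of each AP-1 subunit, ornithogalum minus vehicle (horizontal axis), with limma's 95% interval; filled points passed the adjusted threshold of 0.05, open points did not, and the dashed line marks the median of all clusters (0.035). JUN (2.18) and JUNB (2.03) lie farthest right and BATF3 (-0.086) is the 1 point left of 0.

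The ornithogalum arrays differed from each other by 0.0495 to 0.321 over the 10 members, and the vehicle arrays by 0.000797 to 0.233. For 9 members the ornithogalum pair was the wider one. The first ornithogalum array was the higher of the pair for 7 members and the second for FOSB, MAFF and BATF3. Relative to the vehicle mean, JUN was 2.32 and 2.04 higher on the single ornithogalum arrays and JUNB 2.15 and 1.92 higher, so neither array alone carried these differences. JUND, at 0.506 and 0.206, and MAFF, at 0.336 and 0.604, were less even.

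The calls leaned on both vehicle arrays. Without vehicle replicate 1 or without vehicle replicate 2, limma called 0 of the 10 members, 0 genes of the lists that follow and 0 clusters in all, with 6 members at an unadjusted p under 0.05 in each case. The 6 members that rose had differences of similar size there, with adjusted p from 0.0605 (JUN and JUNB) to 0.17 (FOS). Without vehicle replicate 1 and without vehicle replicate 2, the log2 difference was 2.08 and 2.27 for JUN, 2.01 and 2.05 for JUNB and 1.56 and 1.44 for ATF3, against 2.18, 2.03 and 1.499 on all arrays. The spread then came from the wider ornithogalum pair alone, and the SE of JUN was 0.227 in both cases, against 0.153 on all arrays. With 1 ornithogalum array left out, the spread came from the closer vehicle pair alone and the single treated array was assumed to vary like it. On that footing 7 members passed without ornithogalum replicate 1, with MAFF added (adjusted p = 0.0297), and 8 without ornithogalum replicate 2, with FOSL2 (adjusted p = 0.0322) and JUND (adjusted p = 0.0325) added. FOSL2 also passed when brighter clusters alone were tested (limma adjusted p = 0.0333). In that setting limma called 4984 of 9642 clusters, against 4076 of 21214 without the filter. The filter left out MAFF and BATF3, and ATF3 and FOSB met it only through their ornithogalum arrays. Quantile, cyclic loess and median scaling each gave 7 members higher and 0 lower, adding MAFF, with adjusted p from 0.0196 to 0.026. Centring each array on its median moved the median difference of all clusters from 0.035 to 0.195 and that of the members from 0.89 to 1.05. It also changed the split of all calls to 2238 higher and 1898 lower, against 1393 and 2683 on the deposited values.

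**Figure D3:**
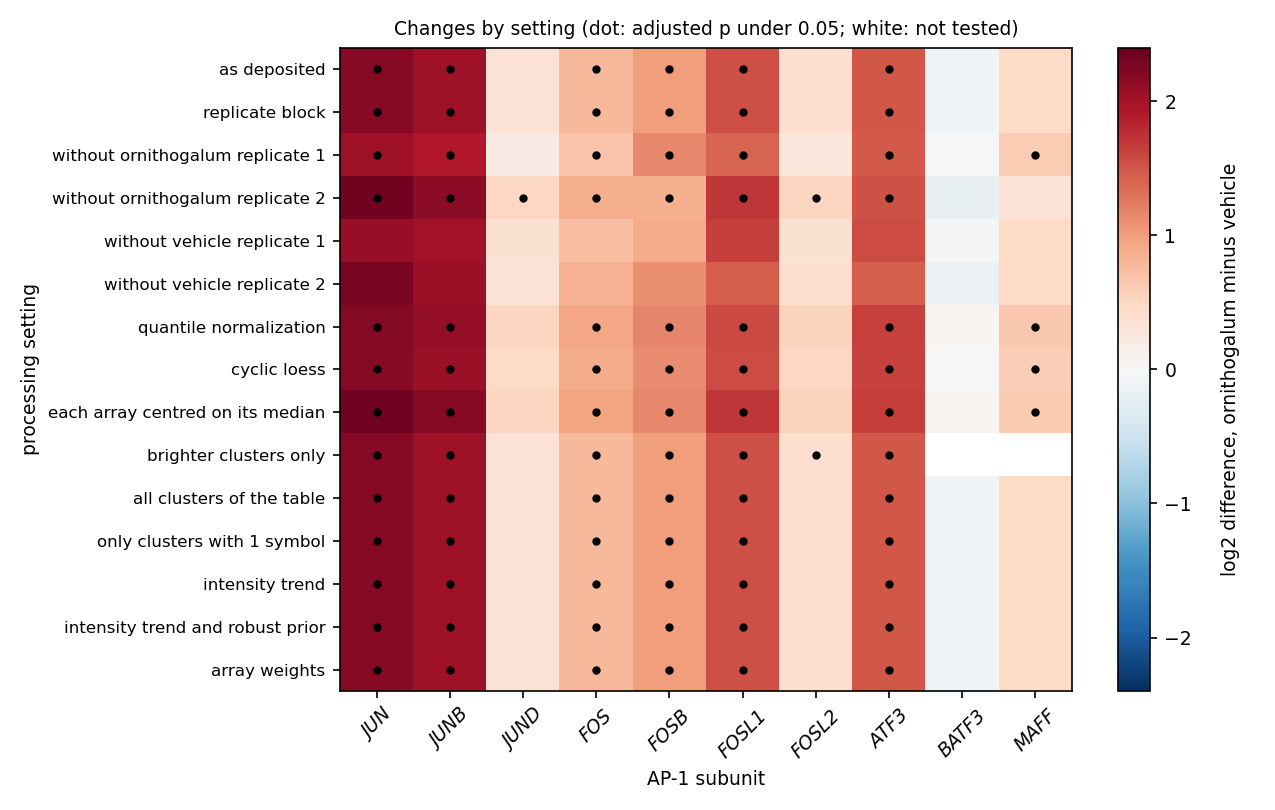
Log2 difference, ornithogalum minus vehicle (colour, red higher), of each AP-1 subunit (columns) under each processing setting (rows); black dots mark an adjusted p under 0.05 and white cells were not tested. JUN, JUNB, FOSL1, ATF3, FOSB and FOS carry a dot in every row except those without vehicle replicate 1 or 2.

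Other bZIP factors that can pair with AP-1 subunits or share their sites mostly did not pass. Of 26 measured, 5 rose (19.2%, against 6.57% of all clusters) and 1 fell, where 12.6% of all clusters fell. In either direction 23.1% were called, against 19.2% of all clusters, and the median log2 difference was 0.098. This list and those that follow were chosen with earlier results of these data known, so their shares are descriptions only. CREB5, a CRE-binding factor that can pair with JUN, had log2 values of 7.03 and 7.02 on the ornithogalum arrays, against 5.42 and 5.42 on the vehicle arrays, and rose 3.04-fold (limma adjusted p = 0.00336). DDIT3 (CHOP), a stress-induced partner of C/EBP and ATF proteins, rose 2.96-fold. The small MAF gene MAFG rose 1.89-fold in the cluster of highest mean among its 3, and its other clusters are not given here. Its partner BACH1, a repressor released by haem, rose 1.62-fold, and ATF6, a sensor of the endoplasmic reticulum, 1.49-fold. NFE2, the blood-cell partner of small MAF proteins, fell by 0.60 on the log2 scale, at log2 values of 2.93 and 3.15 against 3.71 and 3.58. JDP2, a repressor that binds JUN, and BATF and BATF2, relatives of BATF3, did not pass, with log2 differences of -0.17, 0.058 and -0.011. NFE2, JDP2, BATF and BATF2 lay under a log2 value of 5 on all arrays. Over the list, median scaling gave 7 higher and 0 lower, a block for the replicate number 4 and 0, and testing all 33297 clusters 2 and 0. An intensity trend gave 8 higher and 2 lower, and a trend with a robust prior 8 and 3. Of all 21214 clusters, these settings called 5166 and 5118.

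Kinases and factors upstream of AP-1 genes went both ways. Of 27 measured, 3 rose and 4 fell, with a median log2 difference of 0.068. This was 25.9% called, against 19.2% of all clusters, of which 6.57% higher and 12.6% lower. MAP2K5, the kinase that activates ERK5, had log2 values of 3.77 and 3.33 on the ornithogalum arrays, against 5.47 and 5.58 on the vehicle arrays, and fell by 1.98 on the log2 scale (limma adjusted p = 0.00449). MAPK3 (ERK1) fell by 1.18 and MAPK9 (JNK2), which phosphorylates JUN, by 0.79. MRTFB, a coactivator of serum response factor, fell by 0.63, whereas serum response factor itself (SRF) rose 1.64-fold and its partner ELK4 rose 1.45-fold. The kinase gene MAP2K3 also rose, 1.68-fold (limma adjusted p = 0.0349), and MAPK8 (JNK1) did not pass, with a log2 difference of 0.27. Split by direction, median scaling gave 6 higher and 3 lower, quantile scaling 5 and 3, and cyclic loess 5 and 4, and without ornithogalum replicate 2 there were 6 and 5. Brighter clusters alone gave 11 calls among 21 genes, where 4984 of 9642 clusters were called. A fit on all 33297 clusters gave 4, with 2644 clusters called.

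Genes described as AP-1 targets moved upwards where they passed. Of 31 measured, 9 rose (29%, against 6.57% of all clusters) and 0 fell. At an unadjusted p under 0.05 limma gave 12 higher and 0 lower. The median log2 difference was 0.24. This list was chosen with earlier results of these data known, so its share is a description and not a test of AP-1 activity. MMP1, the interstitial collagenase and a classical TRE-driven gene, had log2 values of 9.39 and 9.54 on the ornithogalum arrays, against 6.97 and 7.04 on the vehicle arrays, and rose 5.50-fold (95% interval 4.45 to 6.80, limma adjusted p = 0.00336). DUSP1, a phosphatase that inactivates MAP kinases, rose 4.25-fold and PTGS2, the inducible cyclooxygenase, 2.98-fold. TRIB1, a pseudokinase, rose 2.50-fold, HBEGF, a ligand of the EGF receptor, 2.28-fold and LIF, a cytokine, 2.16-fold. The other matrix metalloproteinases on the list did not pass, among them MMP3 (log2 difference 0.79), MMP10 (0.52), MMP9 (-0.074) and MMP7 (0.23). PLAU and PLAUR, the urokinase and its receptor, had log2 differences of 0.13 and -0.0062. Of the 31 targets, 16 had a log2 value under 5 on at least 3 of the 4 arrays. These included PLAU and every matrix metalloproteinase measured other than MMP1.

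Among genes that act on AP-1 mRNAs and proteins after transcription, most of those that passed fell. Of 21 measured, 1 rose and 7 fell (38.1% called, against 19.2% of all clusters, of which 6.57% higher and 12.6% lower), although the median log2 difference was -0.023. ZFP36 (tristetraprolin), which destabilises mRNAs with AU-rich elements such as that of FOS, had log2 values of 9.05 and 8.23 on the ornithogalum arrays, against 6.55 and 6.62 on the vehicle arrays. It rose 4.16-fold (limma adjusted p = 0.0103), with a wide 95% interval of 2.52 to 6.86. The deadenylase gene PARN fell by 1.54 on the log2 scale, and the AU-rich element binders TIA1 and HNRNPD fell by 0.96 each. CUL4A, a scaffold of the ubiquitin ligase that targets JUN, fell by 1.26, and MEN1, whose product menin binds JUND, fell by 0.86. ELAVL1 (HuR) and ITCH, a ubiquitin ligase for JUN, did not pass, with log2 differences of 0.0023 and 0.0037. Median scaling gave 3 higher and 5 lower and a median of 0.137, and cyclic loess a median of 0.0017, so the sign of this median depended on the scaling.

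**Figure D4:**
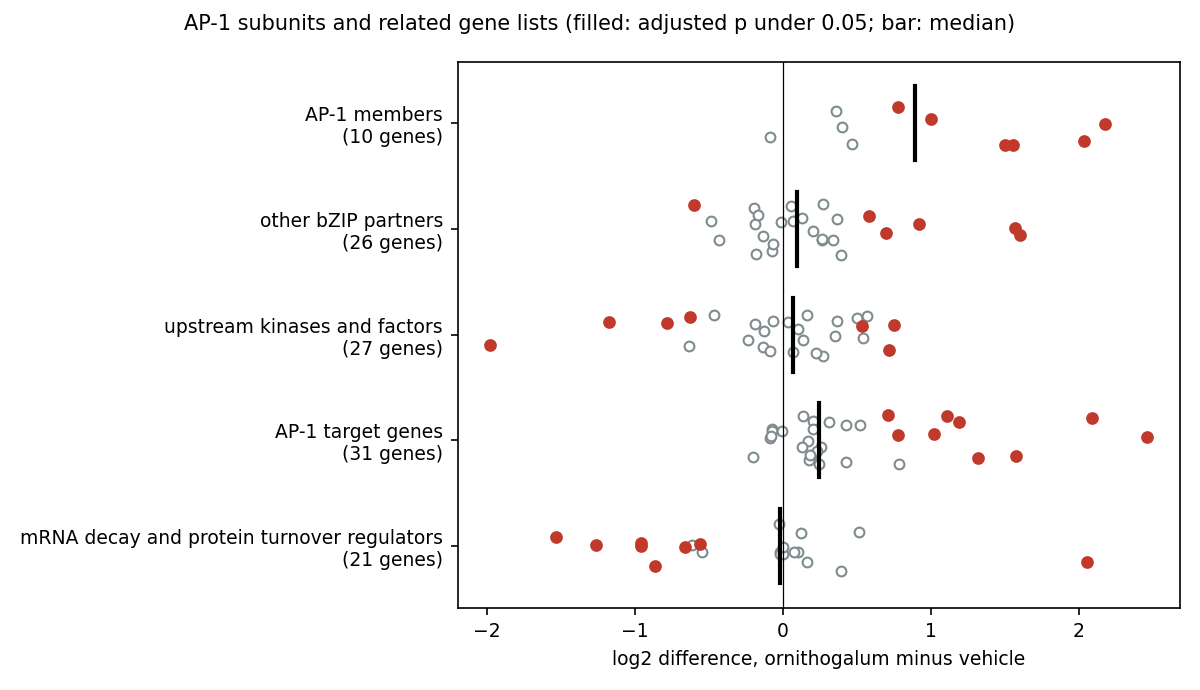
Log2 difference, ornithogalum minus vehicle (horizontal axis), of the AP-1 subunits and of 4 lists of related genes (rows); filled points passed the adjusted threshold of 0.05, open points did not, and black bars are medians. The median is 0.89 for the 10 subunits, 0.24 for the targets and between -0.023 and 0.098 for the other lists.

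The genes closest in pattern were taken as those with the smallest Euclidean distance over the 4 arrays, after subtracting the vehicle mean, among 18417 genes with the members left out. Nearest to JUN were DUSP6 (distance 0.161), PEA15 (0.173) and DUSP1 (0.200). DUSP6 had log2 values of 7.59 and 7.41 on the ornithogalum arrays, against 5.09 and 5.36 on the vehicle arrays, a 4.83-fold rise. Nearest to FOS were RBPJ (distance 0.0328), RPP30 (0.0425) and NIP7 (0.0576), which rose 1.71-fold, 1.75-fold and 1.74-fold. With 4 arrays in 2 groups, such likeness is mostly likeness in the size of the change.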

How the data were processed

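Labelled total RNA from 4 AGS samples was measured on Affymetrix Human Gene 1.0 ST arrays. The authors deposited log2 values that, per the submitters' processing notes, came from RMA and Affymetrix Expression Console 1.1; how background, scaling and filters were set is not given in the sources. Of 33297 clusters, 19460 had 1 symbol in the platform annotation, 1754 several and 12083 none. Symbols were updated through RefSeq gene numbers. The 21214 clusters with a symbol were fitted with limma 3.58.1 in R 4.3.3 (lmFit, eBayes, two-sided, Benjamini-Hochberg over all clusters). A gene with several clusters was represented by that of highest mean. The fit was tested on simulated data. The members and the 4 gene lists were chosen with earlier results of these data known. From each list up to 6 called genes of smallest p were named, and any further list gene was picked with its value known. Alternatives were a block for the replicate number, each array left out, 3 scalings, a dim filter (log2 value of at least 5 on 2 arrays), other sets of clusters, 2 variance models and array weights. Precision is limited by the number of arrays. Probe sequences were not used here, so cross-hybridisation between related members was not examined.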

Additional observations from a re-analysis of the deposited data

How the results depend on the processing

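JUN, JUNB, FOSL1, ATF3, FOSB and FOS kept their direction under all 14 alternatives and lost the adjusted threshold in 2, those without a vehicle array. For ATF3 and FOSB the filter on dim clusters is no support, since they met it only through the ornithogalum arrays, where they are high. Leaving out 1 array in turn gave 0 to 8 members called, 0 to 6 other bZIP partners, 0 to 11 upstream kinases and factors, 0 to 12 targets, 0 to 10 regulators of decay and turnover, and 0 to 7058 clusters, with 0 in each case only without a vehicle array. There limma had 4192 (without vehicle replicate 1) and 3986 clusters at an unadjusted p under 0.05. Testing all clusters of the table gave 2644 clusters called, 2 bZIP partners and 4 upstream genes, brighter clusters alone gave 11 upstream genes, and an intensity trend gave 10 bZIP partners without and 11 with a robust prior. BATF3, which never passed, had a log2 difference of 0.045 after quantile scaling and 0.073 after median scaling, against -0.086. With the replicate number as a block, 6 members, 4 bZIP partners, 6 upstream genes, 9 targets, 7 regulators and 3302 clusters were called. The deviations of same-numbered arrays correlated at -0.059 across clusters, and the labels do not say that a number marks a shared culture, so the block is no paired design. Where not stated, the cause of a shift was not tested.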
